A study of Mus musculus with 14 samples.

Results

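The genes described here are the DNA replication and S-phase genes, 47 genes picked by name from the 55414 genes of the deposited table. They make up the machinery that copies chromosomes: origin licensing factors, the MCM helicase, the factors that start it, the DNA polymerases with their clamp and its loader, the enzymes that supply nucleotides, and proteins that guard forks and repackage new DNA. All 47 passed the filter on low counts and were tested, among 12851 genes in all. They were followed in primary bone marrow-derived macrophages (pBMDMs) of wildtype mice that had spent 24 h in 1 of 5 media. Supernatants came from Pfa1 MEFs, a mouse embryonic fibroblast line in which 4-hydroxytamoxifen (4OHT, labelled Tam) removes GPX4, the enzyme that repairs lipid peroxides, so that the fibroblasts die by ferroptosis. The groups were supernatant of untreated fibroblasts (ctrl), of fibroblasts given 4OHT (4OHT, the ferroptotic supernatant), of fibroblasts given 4OHT and the ferroptosis inhibitor Ferrostatin-1 (4OHT+Fer1, labelled Tam Fer1), and of fibroblasts given Ferrostatin-1 alone (Fer1), with 3 replicates each. The fifth group received fresh medium (medium, labelled medium ctrl), with 2 replicates, which gives 14 samples. The macrophages of every group carried intact GPX4, and all supernatants came from a single fibroblast line. In the 4OHT group, the death of the fibroblasts, their loss of GPX4 and their contact with 4OHT occur together, and the 4OHT+Fer1 group shares the latter pair. The study's methods describe filtered supernatants with or without 4OHT and Ferrostatin-1, which could therefore also have reached the macrophages. Such direct effects on macrophages were not tested. The labels do not say whether replicates were separate cultures or animals. The p-values therefore measure the spread between these samples that is left once group and replicate number are fitted.

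As background, a cell licenses its origins by loading the ring-shaped MCM helicase onto DNA in G1 and fires them in S phase, when the helicase is switched on and polymerases follow it. Most of these genes are transcribed shortly before and during S phase under E2F transcription factors, so their mRNAs are widely used as a sign of cycling cells. Bone marrow-derived macrophages are not terminally arrested and keep dividing in culture while the growth factor M-CSF is present. The study's methods state that these pBMDMs were plated with M-CSF. They do not say whether each supernatant and the fresh medium held it during the exposure. In bulk RNA, fewer cells in S phase and less of these mRNAs per cell cannot be told apart.

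QuantSeq libraries are read from the 3′ end of polyadenylated transcripts, so counts do not grow with transcript length, and levels below are CPM after TMM scaling of the libraries. Each sample held between 7823051 and 11052352 counts, and 3 counts, taken as the smallest amount that can be told from none, equalled 0.272 to 0.381 CPM. Log2 fold changes come from edgeR's quasi-likelihood test in 1 model of all groups and the replicate number, and p-values were adjusted by Benjamini and Hochberg's method over all 12851 genes. A gene was called where its level changed more than 2-fold, a log2 fold change beyond 1 or -1, with an adjusted p under 0.05. Markers of macrophages summed to between 22790 and 47750 CPM in the 14 samples, while B and T cell, dendritic cell and erythroid markers stayed under 4 CPM in sum.

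Promoter sequences are shown first, because the letters bound by E2F recur in this group of genes. RefSeq promoters (GRCm38.p6, 250 bases before to 50 bases after a gene start) were given for 40 of the 47 genes, in 46 promoters. Mcm4, Gins1, Gins2, Gins4, Prim2, Pole and Rfc2 had no entry. The form TTCCCGC was searched together with TTCGCGC, with TTGCCGC and with TTGGCGC on both strands, and matches may overlap each other. At least 1 form was present in 63.0% of the 46 promoters, belonging to 26 of 40 genes, against 9.57% of 32851 promoters in the whole table. The windows below are the ones of the fork protein Clspn and of 5 other genes that carry a form, each 30 bases long and written 5′ to 3′ on the strand of the gene, with the matched form in capitals.
Clspn: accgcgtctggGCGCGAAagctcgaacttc (chr4:126556990-126557019, plus strand)
Rrm1: aggagaactcgTTCCCGCcaggtccgcttt (chr7:102441617-102441646, plus strand)
Uhrf1: tgctttctcgcTTCCCGCcacagcgccagc (chr17:56303278-56303307, plus strand)
Prim1: ggcctgtcttgTTCCCGCcaattctcgtgt (chr10:128015189-128015218, plus strand)
Mcm5: cgccaagaactTTCGCGCcaaaacgtccag (chr8:75109346-75109375, plus strand)
Mcm6: gccggaggcgcGCGCGAAgtggcagcgcgg (chr1:128359663-128359692, minus strand)
In Clspn and Mcm6 the capitals are the reverse complement of a form. Rrm1, Uhrf1 and Prim1 carry the same form, which stood 67, 48 and 15 bases before the gene start. A match describes the sequence and is not a measured binding site. A form was found in 6 of 9 genes called in either comparison of the 4OHT group with ctrl or 4OHT+Fer1 and in 20 of 31 other genes. Mcm6 carried 5 matches, and none was in the window of Pcna, Tyms, Dut or Mcm10. CCAAT was found on either strand in 58.7% of the promoters of these genes and 37.4% of all promoters, and GGGCGG, which can share bases with the reverse of TTCCCGC, in 73.9% and 35.7%.

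In pBMDMs exposed to ferroptotic supernatant, the replication genes stood lower than in ctrl nearly as a group, by a median log2 fold change of -0.84, while the median over all 12851 genes was 0.01. Of the 47 genes, 46 had a negative log2 fold change, against 49.2% of all genes, and the exception was Pold3 with 0.03. Within replicate numbers 1, 2 and 3, the median difference was -0.70, -0.90 and -0.48. A total of 10 genes were called lower and none higher, where 0.763% of all genes were called lower: Mcm5, Mcm10, Gins1, Lig1, Rrm1, Rrm2, Tyms, Dut, Clspn and Uhrf1. In 26 genes every 4OHT sample lay below every ctrl sample, a separation seen for 5.84% of all genes. At an unadjusted p under 0.05, 30 genes were lower, against 5.93% of all genes. With 3 samples against 3, an exact permutation test of a single gene cannot give a two-sided p below 0.1, so calls rest on the spread shared across genes. They also rest on the replicate number in the model: without it 1 gene was called (Clspn), in a fit of these 2 groups alone none was (for edgeR at the same thresholds), and DESeq2 called 14. The share of 0.763% is that of the main fit, and shares of all genes called under these alternatives are not given here. With replicate number 1, 2 or 3 left out of every group, 0, 0 and 10 genes were called. Of the 10 called without number 3, 7 were among the 10 above (Mcm10, Dut and Uhrf1 were not), and of 11 called without only the third 4OHT sample, 9 were.

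**Figure D1:**
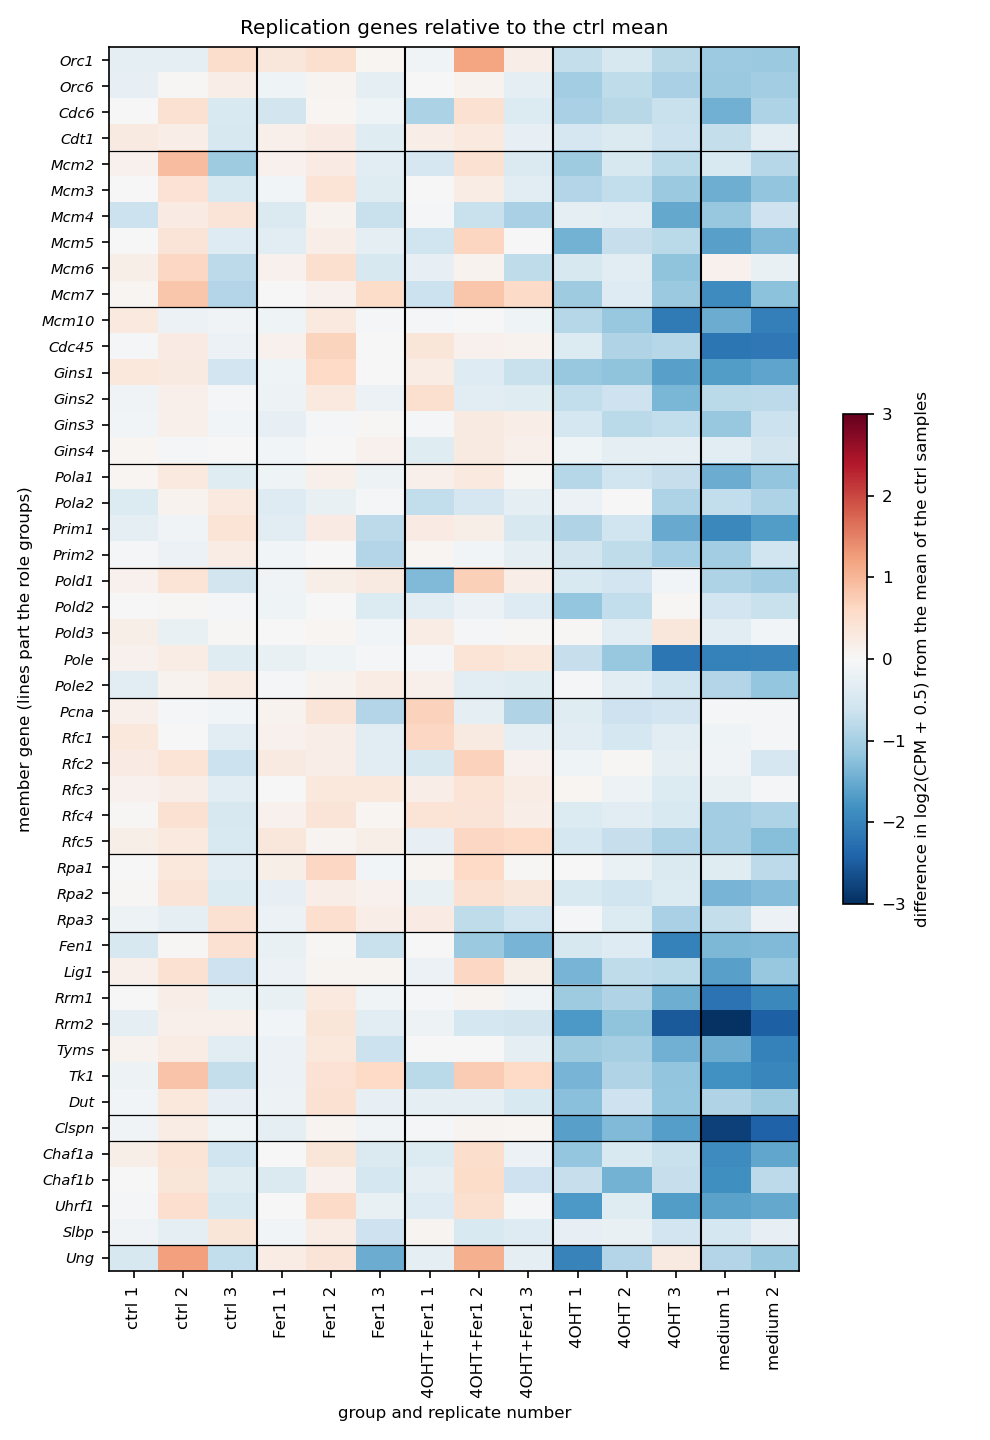
Colour gives the difference in log2(CPM + 0.5) of each sample (columns, by group and replicate number) from the mean of the 3 ctrl samples, for the 47 replication genes (rows, ordered by role). Blue is lower and red higher, and most rows turn blue in the 4OHT and medium columns but not in Fer1 or 4OHT+Fer1, while Rfc3 and Pold3 stay pale and Pcna varies in both directions among the Fer1 and 4OHT+Fer1 columns.

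Clspn showed the smallest p of the 47 genes. It encodes claspin (ENSMUSG00000042489, GRCm38 chr4:126556935-126593903, plus strand), which travels with the fork, sets its speed and activates the kinase Chk1 when the fork stalls. Clspn had 38.7, 49.4 and 38.5 CPM in ctrl, 34.02, 44.5 and 38.99 CPM in Fer1, 39.9, 44.7 and 43.5 CPM in 4OHT+Fer1, 13.3, 16.3 and 12.9 CPM in 4OHT and 5.59 and 7.45 CPM in medium, each in the order of the replicate number. The supernatants of ctrl, Fer1 and 4OHT+Fer1 fibroblasts, called live supernatants here, gave 9 samples that lay between 34.02 and 49.4 CPM, while the 3 ferroptotic samples lay at 16.3 CPM or less, and both medium samples lay lower still. The log2 fold change of 4OHT against ctrl was -1.57 (standard error 0.14, edgeR adjusted p = 0.000351), a 2.97-fold lower level, and the differences within replicate numbers were -1.53, -1.58 and -1.56. The short Mir7119 overlaps Clspn on its strand and Gm12936 on the other, and how strands were counted was not given in the sources used here.

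Of the 5 enzymes that supply deoxynucleotides, 4 were called lower, against 0.763% of all genes. In all 5 the 4OHT and ctrl groups were separate, that is, did not overlap, with 4OHT lower, as in 5.84% of all genes. Their median log2 fold change was -1.24. Ribonucleotide reductase makes deoxynucleotides from ribonucleotides, with Rrm1 as its large and Rrm2 as its small subunit. Rrm1 (chr7:102441695-102469771, plus strand) had 77.6, 89.7 and 67.9 CPM in ctrl, 66.2, 95.02 and 72.03 CPM in Fer1, 76.3, 82.8 and 71.98 CPM in 4OHT+Fer1, 36.7, 41.7 and 27.7 CPM in 4OHT and 16.4 and 20.1 CPM in medium. Its highest ferroptotic sample was well under its lowest live-supernatant sample of 66.2 CPM, and the change from ctrl was -1.15 (standard error 0.14, edgeR adjusted p = 0.00434). Gm45399 overlaps Rrm1 on the same strand. Rrm2 (chr12:24708241-24714146, plus strand) had 27.7, 37.997 and 37.7 CPM in ctrl, 32.1, 44.01 and 27.3 CPM in Fer1, 30.7, 23.4 and 22.9 CPM in 4OHT+Fer1, 10.01, 14.4 and 5.57 CPM in 4OHT and 3.94 and 5.78 CPM in medium. It changed by -1.83 (standard error 0.27, edgeR adjusted p = 0.00923), or 3.56-fold, the largest decrease among the called genes, and the third ferroptotic sample was the lowest of the 3.

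Tyms encodes thymidylate synthase, the source of new thymidylate, and Dut the dUTPase that keeps uracil out of DNA. Tyms (chr5:30058202-30073617, minus strand) had 14.3, 15.7 and 10.5 CPM in ctrl, 11.7, 16.7 and 8.37 CPM in Fer1, 13.5, 13.4 and 10.8 CPM in 4OHT+Fer1, 6.11, 6.44 and 4.56 CPM in 4OHT and 4.44 and 2.89 CPM in medium. Its change in 4OHT against ctrl was -1.24 (standard error 0.22, edgeR adjusted p = 0.0197). Dut (chr2:125247190-125258608, plus strand) had 11.8, 15.7 and 10.5 CPM in ctrl, 11.2, 17.3 and 10.4 CPM in Fer1, 10.1, 10.3 and 8.91 CPM in 4OHT+Fer1, 4.95, 7.89 and 5.31 CPM in 4OHT and 6.48 and 5.67 CPM in medium. It changed by -1.06 (standard error 0.21, edgeR adjusted p = 0.0309), and both medium samples lay within the range of the ferroptotic samples. Both genes had every ferroptotic sample below every live-supernatant sample. Tk1, the thymidine salvage kinase, was also separate, with 7.90, 11.3 and 9.36 CPM against 19.7, 39.5 and 13.1 CPM, but its scatter among live supernatants was wide and it did not pass the test (-1.30, edgeR adjusted p = 0.123).

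**Figure D2:**
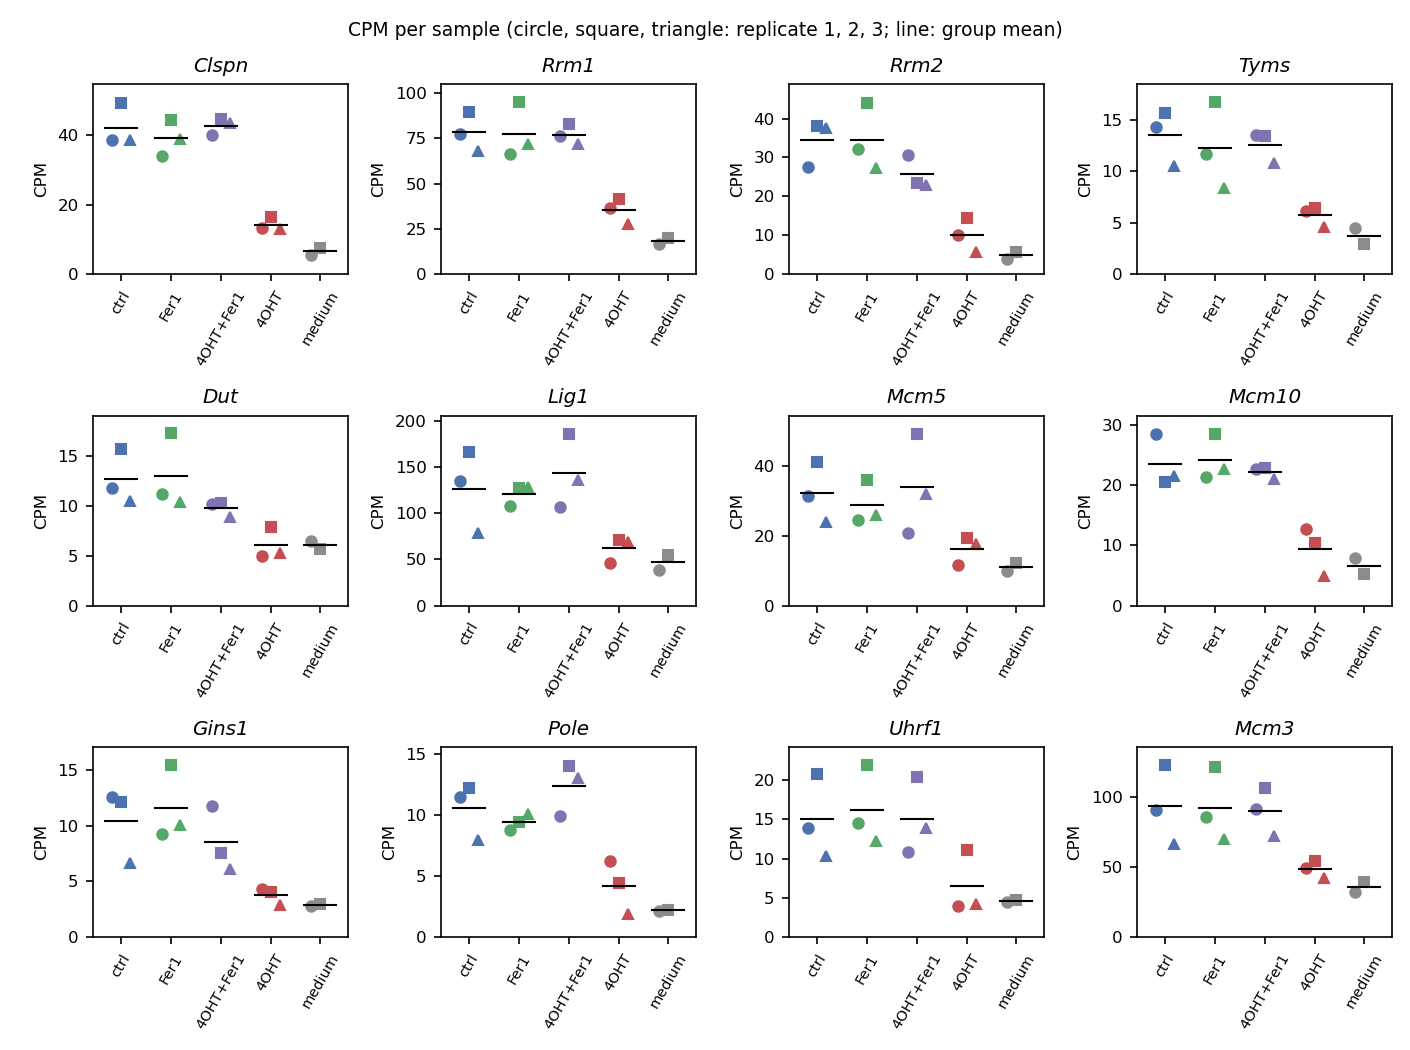
CPM of 12 replication genes in every sample (vertical axes start at 0, groups on the horizontal axes), with circle, square and triangle for replicate numbers 1, 2 and 3 and a line at the group mean. In Clspn, Rrm1, Rrm2, Tyms and Dut the 3 ferroptotic samples lie under all 9 samples of live supernatants, whereas the second ferroptotic sample of Uhrf1, at 11.2 CPM, overlaps them.

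Origin licensing genes and the MCM ring had median log2 fold changes of -0.95 over 4 and -0.91 over 6 genes. Mcm5 was the only gene called among them, where 0.763% of all genes were called lower. Cdt1, which brings MCM to origins, had 60.4, 57.4 and 35.2 CPM in ctrl, 54.8, 58.9 and 38.7 CPM in Fer1, 56.8, 61.2 and 41.9 CPM in 4OHT+Fer1, 34.98, 36.4 and 31.4 CPM in 4OHT and 30.1 and 39.4 CPM in medium. The third ctrl sample lay within the ferroptotic range, and the log2 fold change of -0.54 did not pass the test (edgeR adjusted p = 0.129). Orc6, a subunit of the origin recognition complex, passed the adjusted p but not the fold limit (-0.997 (standard error 0.21, edgeR adjusted p = 0.0377)), and Vps35 overlaps it on the other strand. Cdc6, the partner of Cdt1, had 3.90, 4.35 and 4.94 CPM in 4OHT and 8.10, 11.3 and 5.74 CPM in ctrl (-0.90, edgeR adjusted p = 0.218). Orc1, the largest subunit of the origin recognition complex, had 3, 5 and 2 counts in 4OHT and 6, 6 and 13 in ctrl, too few for a fold change of use.

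In the MCM ring itself, Mcm5 (chr8:75109569-75128439, plus strand) had 31.4, 41.01 and 23.9 CPM in ctrl, 24.5, 35.8 and 25.99 CPM in Fer1, 20.7, 49.2 and 31.8 CPM in 4OHT+Fer1, 11.48, 19.3 and 17.6 CPM in 4OHT and 9.78 and 12.2 CPM in medium. Every ferroptotic sample was below every live-supernatant sample, though by only 20.7 against 19.3 CPM at the closest, and the change of -1.001 (standard error 0.21, edgeR adjusted p = 0.0428) sat at the fold limit: with a minimum count of 30 in the filter, or without the replicate number, it was not called. Mcm3 had 90.8, 123 and 66.3 CPM in ctrl, 85.7, 121 and 69.6 CPM in Fer1, 91.1, 106 and 71.8 CPM in 4OHT+Fer1, 49.2, 53.9 and 41.8 CPM in 4OHT and 32.3 and 39.4 CPM in medium. It was separate in the same way and had a smaller p, with a fold change of 1.88 under the limit (-0.91 (standard error 0.14, edgeR adjusted p = 0.00990)). Mcm2, Mcm4, Mcm6 and Mcm7 had log2 fold changes of -0.91, -0.76, -0.68 and -0.96 with overlapping groups. The third ctrl sample reached into the ferroptotic range for Mcm2, Mcm6 and Mcm7, and the first ctrl sample did so for Mcm4. Mcm7 shares its locus with Mir25, Mir93 and Mir106b and, on the other strand, with Cops6 and Ap4m1.

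Cdc45, the GINS complex (Gins1 to Gins4) and Mcm10 turn the loaded ring into a running helicase. All 6 had separate 4OHT and ctrl groups with 4OHT lower, as had 5.84% of all genes, and their median was -0.87. Of the 6, 2 were called, where 0.763% of all genes were called lower. Mcm10 (chr2:4989714-5012791, minus strand) had 28.5, 20.4 and 21.4 CPM in ctrl, 21.2, 28.4 and 22.7 CPM in Fer1, 22.7, 22.8 and 20.99 CPM in 4OHT+Fer1, 12.6, 10.3 and 4.94 CPM in 4OHT and 7.87 and 5.23 CPM in medium. Its change was -1.36 (standard error 0.26, edgeR adjusted p = 0.0263), and the third ferroptotic sample was again the lowest. Gins1 (chr2:150905400-150931280, plus strand) had 12.6, 12.2 and 6.63 CPM in ctrl, 9.23, 15.4 and 10.02 CPM in Fer1, 11.8, 7.54 and 6.14 CPM in 4OHT+Fer1, 4.32, 4.08 and 2.91 CPM in 4OHT and 2.79 and 3.004 CPM in medium. It changed by -1.45 (standard error 0.27, edgeR adjusted p = 0.0243). Both genes stayed under every live-supernatant sample in all 3 ferroptotic samples. Gins4 stood apart within its own complex: it had 22.4, 20.7 and 21.4 CPM in ctrl, 20.2, 21.7 and 23.5 CPM in Fer1, 16.7, 25.8 and 23.9 CPM in 4OHT+Fer1, 19.5, 17.4 and 17.8 CPM in 4OHT and 17.02 and 14.5 CPM in medium, a log2 fold change of -0.24 (edgeR adjusted p = 0.743), against -0.94 for Gins2 and -0.71 for Gins3, and differences between subunits were not tested. Cdc45 had 3.79, 2.54 and 2.66 CPM in 4OHT and 4.96, 6.23 and 4.53 CPM in ctrl (-0.80, edgeR adjusted p = 0.228).

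The replicative polymerases held no called gene in this comparison. Pole, the catalytic subunit of the leading-strand polymerase epsilon (chr5:110286306-110337474, plus strand), had 11.4, 12.2 and 7.95 CPM in ctrl, 8.73, 9.39 and 10.02 CPM in Fer1, 9.93, 14.02 and 13.003 CPM in 4OHT+Fer1, 6.22, 4.44 and 1.90 CPM in 4OHT and 2.16 and 2.22 CPM in medium. All ferroptotic samples were lower than all samples of live supernatants, and the third was lowest, and its log2 fold change from ctrl of -1.33 carried a standard error of 0.32 without passing the test (edgeR adjusted p = 0.0664). Gm26277, Gm15791 and Gm15792 overlap Pole. Its partner Pole2 had -0.36 (edgeR adjusted p = 0.760). In polymerase delta, which copies the lagging strand, the catalytic Pold1 had -0.42 and Pold2 -0.61, both with overlapping groups. Pold3, an accessory subunit, had 33.9, 25.8 and 30.8 CPM in ctrl, 29.8, 31.2 and 28.1 CPM in Fer1, 35.03, 28.9 and 30.9 CPM in 4OHT+Fer1, 30.8, 24.1 and 37.8 CPM in 4OHT and 24.1 and 28.5 CPM in medium. Its values were interleaved across all 5 groups, with a log2 fold change of 0.03 (edgeR adjusted p = 0.978).

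Polymerase alpha and primase start each new strand with a short primer. Pola1, the catalytic subunit of polymerase alpha, had 34.9, 41.6 and 26.1 CPM in ctrl, 30.8, 37.1 and 29.96 CPM in Fer1, 37.1, 41.1 and 34.3 CPM in 4OHT+Fer1, 18.2, 22.2 and 20.8 CPM in 4OHT and 11.7 and 14.5 CPM in medium. Its ferroptotic samples lay below all live supernatants and it passed the adjusted p but not the fold limit (-0.73 (standard error 0.15, edgeR adjusted p = 0.0377)). The primase subunits Prim1 and Prim2 had log2 fold changes of -1.11 and -0.85 with separate groups and did not pass the test (edgeR adjusted p = 0.123 and 0.169). Pola2, the regulatory subunit, had -0.33 with overlapping groups.

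The sliding clamp, its loader and the single-strand binding proteins had medians of -0.42 over 6 and -0.51 over 3 genes and no call. Pcna, the clamp that holds polymerases on DNA, had 121, 101 and 105 CPM in 4OHT and 173, 149.9 and 146 CPM in ctrl, and its log2 fold change of -0.52 had a standard error of 0.28 (edgeR adjusted p = 0.564). Its groups were separate, but live supernatants with Ferrostatin-1 reached down to 83.6 CPM. The 4OHT sample values of Pcna were also below fresh medium, at 149 and 149 CPM. Rfc1, the large subunit of the clamp loader, had 259.9, 208 and 167 CPM in ctrl, 227, 239 and 167 CPM in Fer1, 318, 249 and 171 CPM in 4OHT+Fer1, 166, 145 and 167 CPM in 4OHT and 191 and 199 CPM in medium. The third samples of the 4 supernatant groups lay close together, and the log2 fold change was -0.37 (edgeR adjusted p = 0.484). Of the small loader subunits, Rfc5 was separate from ctrl (-0.75, edgeR adjusted p = 0.266) and Rfc2, Rfc3 and Rfc4 were not.

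Replication protein A covers exposed single strands. Rpa1 had 39.2, 48.8 and 31.2 CPM in ctrl, 44.04, 60.8 and 37.1 CPM in Fer1, 41.3, 59.9 and 40.1 CPM in 4OHT+Fer1, 39.6, 33.998 and 28.6 CPM in 4OHT and 30.4 and 22.6 CPM in medium. The groups overlapped, with a log2 fold change of -0.21 (edgeR adjusted p = 0.804). Rpa2 was separate by a narrow margin, at -0.51 (edgeR adjusted p = 0.382), and Rpa3, which had at most 29 counts in any sample, had -0.60 (edgeR adjusted p = 0.780).

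Lig1, the ligase that seals Okazaki fragments (chr7:13277283-13311433, plus strand), had 135, 166 and 78.6 CPM in ctrl, 107, 127 and 128 CPM in Fer1, 107, 186 and 136 CPM in 4OHT+Fer1, 45.8, 70.9 and 68.7 CPM in 4OHT and 38.9 and 54.7 CPM in medium. The ferroptotic samples were the lowest of all supernatant samples, though the third ctrl sample, at 78.6 CPM, came near them, and the change was -1.03 (standard error 0.22, edgeR adjusted p = 0.0462). Zswim9 overlaps Lig1 on the other strand. The flap nuclease Fen1, which trims the fragments before ligation, had 21.9, 23.3 and 7.09 CPM in 4OHT and 21.8, 31.3 and 42.3 CPM in ctrl. Its first and second ferroptotic samples lay inside the ctrl range, and the log2 fold change was -1.02, with the third sample far below both (edgeR adjusted p = 0.391).

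Among genes for new chromatin, Uhrf1, which reads hemimethylated DNA behind the fork and brings in the maintenance methyltransferase, was called. Uhrf1 (chr17:56303321-56323486, plus strand) had 13.9, 20.8 and 10.4 CPM in ctrl, 14.6, 21.9 and 12.2 CPM in Fer1, 10.9, 20.4 and 13.9 CPM in 4OHT+Fer1, 4.004, 11.2 and 4.18 CPM in 4OHT and 4.44 and 4.67 CPM in medium. The second ferroptotic sample exceeded the third ctrl sample, so the groups overlapped, while within each replicate number the ferroptotic sample was lower, by -1.74, -0.89 and -1.27 in log2 CPM. The fitted change was -1.28 (standard error 0.25, edgeR adjusted p = 0.0288). Without the third ferroptotic sample Uhrf1 was not called. Chaf1a and Chaf1b, subunits of the factor that places histones on new DNA, had -0.80 and -0.93 (edgeR adjusted p = 0.150 and 0.315). Slbp, which binds the stem-loop of histone mRNAs, had 28.9, 25.9 and 40.3 CPM in ctrl, 29.2, 36.2 and 20.05 CPM in Fer1, 32.9, 22.4 and 23.5 CPM in 4OHT+Fer1, 26.1, 26.7 and 20.8 CPM in 4OHT and 21.3 and 26.1 CPM in medium. Those values overlapped (-0.39, edgeR adjusted p = 0.672). Ung, the uracil glycosylase that removes misplaced uracil, had 1.82, 7.14 and 1.44 CPM in ctrl, 3.27, 3.75 and 0.661 CPM in Fer1, 2.20, 6.27 and 2.15 CPM in 4OHT+Fer1, 0.316, 1.27 and 3.42 CPM in 4OHT and 1.27 and 1.001 CPM in medium. With 3 to 71 counts per sample, its log2 fold change of -0.84 had a standard error of 0.78.

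In the comparison of 4OHT with 4OHT+Fer1, both supernatants came from fibroblasts given 4OHT, and they differed in whether Ferrostatin-1 was added and ferroptosis thereby inhibited. Ferrostatin-1 left in the 4OHT+Fer1 supernatant could also have acted on the macrophages, which was not tested. The replication genes were lower in 4OHT by a median log2 fold change of -0.80 (all genes, 0.00), with -0.70, -0.86 and -0.72 within replicate numbers. Here 9 genes were called lower and none higher, where 0.731% of all genes were called lower. They were Mcm5 (-1.03), Mcm10 (-1.29), Pole (-1.59), Lig1 (-1.19), Rrm1 (-1.14), Rrm2 (-1.41), Tyms (-1.15), Clspn (-1.60) and Uhrf1 (-1.30). This comparison uses the same ferroptotic samples as the one with ctrl, so the lists are not independent. The edgeR adjusted p ranged from 0.000438 for Clspn to 0.0380 for Mcm5. Gins1 and Dut, called against ctrl, had -1.16 ± 0.27 and -0.71 ± 0.21 (log2 fold change ± standard error), without passing the test (edgeR adjusted p = 0.0607 and 0.165). In 29 genes the groups did not overlap, against 5.8% of all genes. Without the replicate number in the model 2 genes were called (Rrm1 and Clspn), and 2 in a fit of these groups alone (Lig1 and Clspn). Leaving out replicate number 1, 2 or 3 gave 0, 0 and 5 calls.

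Among the supernatants in which fibroblasts stayed alive, no replication gene was called. For 4OHT+Fer1 compared with Fer1, for 4OHT+Fer1 compared with ctrl and for Fer1 compared with ctrl, edgeR called 0 of the 47 genes, 0 reached an unadjusted p under 0.05, and DESeq2 called 0, while 0.0233%, 0.0311% and 0% of all genes were called. The median log2 fold changes were 0.02, -0.02 and -0.02. Clspn had 0.13 ± 0.13, 0.03 ± 0.13 and -0.11 ± 0.13, and Rrm1 had -0.00 ± 0.14, -0.02 ± 0.14 and -0.02 ± 0.14, in the same order. The smallest unadjusted p was that of Fen1 in 4OHT+Fer1 against ctrl (-0.90 ± 0.42, edgeR adjusted p = 0.948). Rrm2 stood at 30.7, 23.4 and 22.9 CPM in 4OHT+Fer1, of which the second and the third sample were under all ctrl samples, and its log2 fold change from ctrl was -0.42 ± 0.25 (edgeR adjusted p = 0.948). All 4OHT+Fer1 samples lay below all ctrl samples in 2 genes (Dut and Pold2) and above them in 1 (Rfc3), against 2.85% and 2.51% of all genes. Standard errors between 0.13 and 0.73 in 4OHT+Fer1 against Fer1 set what could be seen.

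Across all groups, 21 of the 47 genes had each of their 3 ferroptotic samples below all 9 samples of live supernatants, a pattern held by 2.38% of all genes: Orc1, Orc6, Mcm3, Mcm5, Mcm10, Cdc45, Gins1, Gins2, Gins3, Pola1, Pole, Rfc5, Rpa2, Lig1, Rrm1, Rrm2, Tyms, Tk1, Dut, Clspn and Chaf1b. Orc1 rests on few counts, with 5 in a ferroptotic sample against 6 in a live-supernatant sample at the closest. No replication gene had the reverse pattern, held by 0.965% of all genes.

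The contrast of both 4OHT effects asks whether 4OHT acted differently without Ferrostatin-1 (4OHT against ctrl) than with it (4OHT+Fer1 against Fer1). Clspn was the only replication gene called, where 0.0233% of all genes were called lower. Its 4OHT effect was -1.57 without and 0.13 with Ferrostatin-1, a difference of -1.70 (standard error 0.19, edgeR adjusted p = 0.00939), and the difference was -1.76, -1.59 and -1.72 within replicate numbers. Rrm1 was next, with -1.15 (standard error 0.20, edgeR adjusted p = 0.126). The median of the 47 genes was -0.84 and 46 were negative, against 49.6% of all genes, and 25 had an unadjusted p under 0.05 with a lower value (3.49% of all genes). DESeq2 called 6 genes in this contrast, which were Pole, Lig1, Rrm1, Rrm2, Tyms and Clspn. Without the replicate number in the model none was called.

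**Figure D3:**
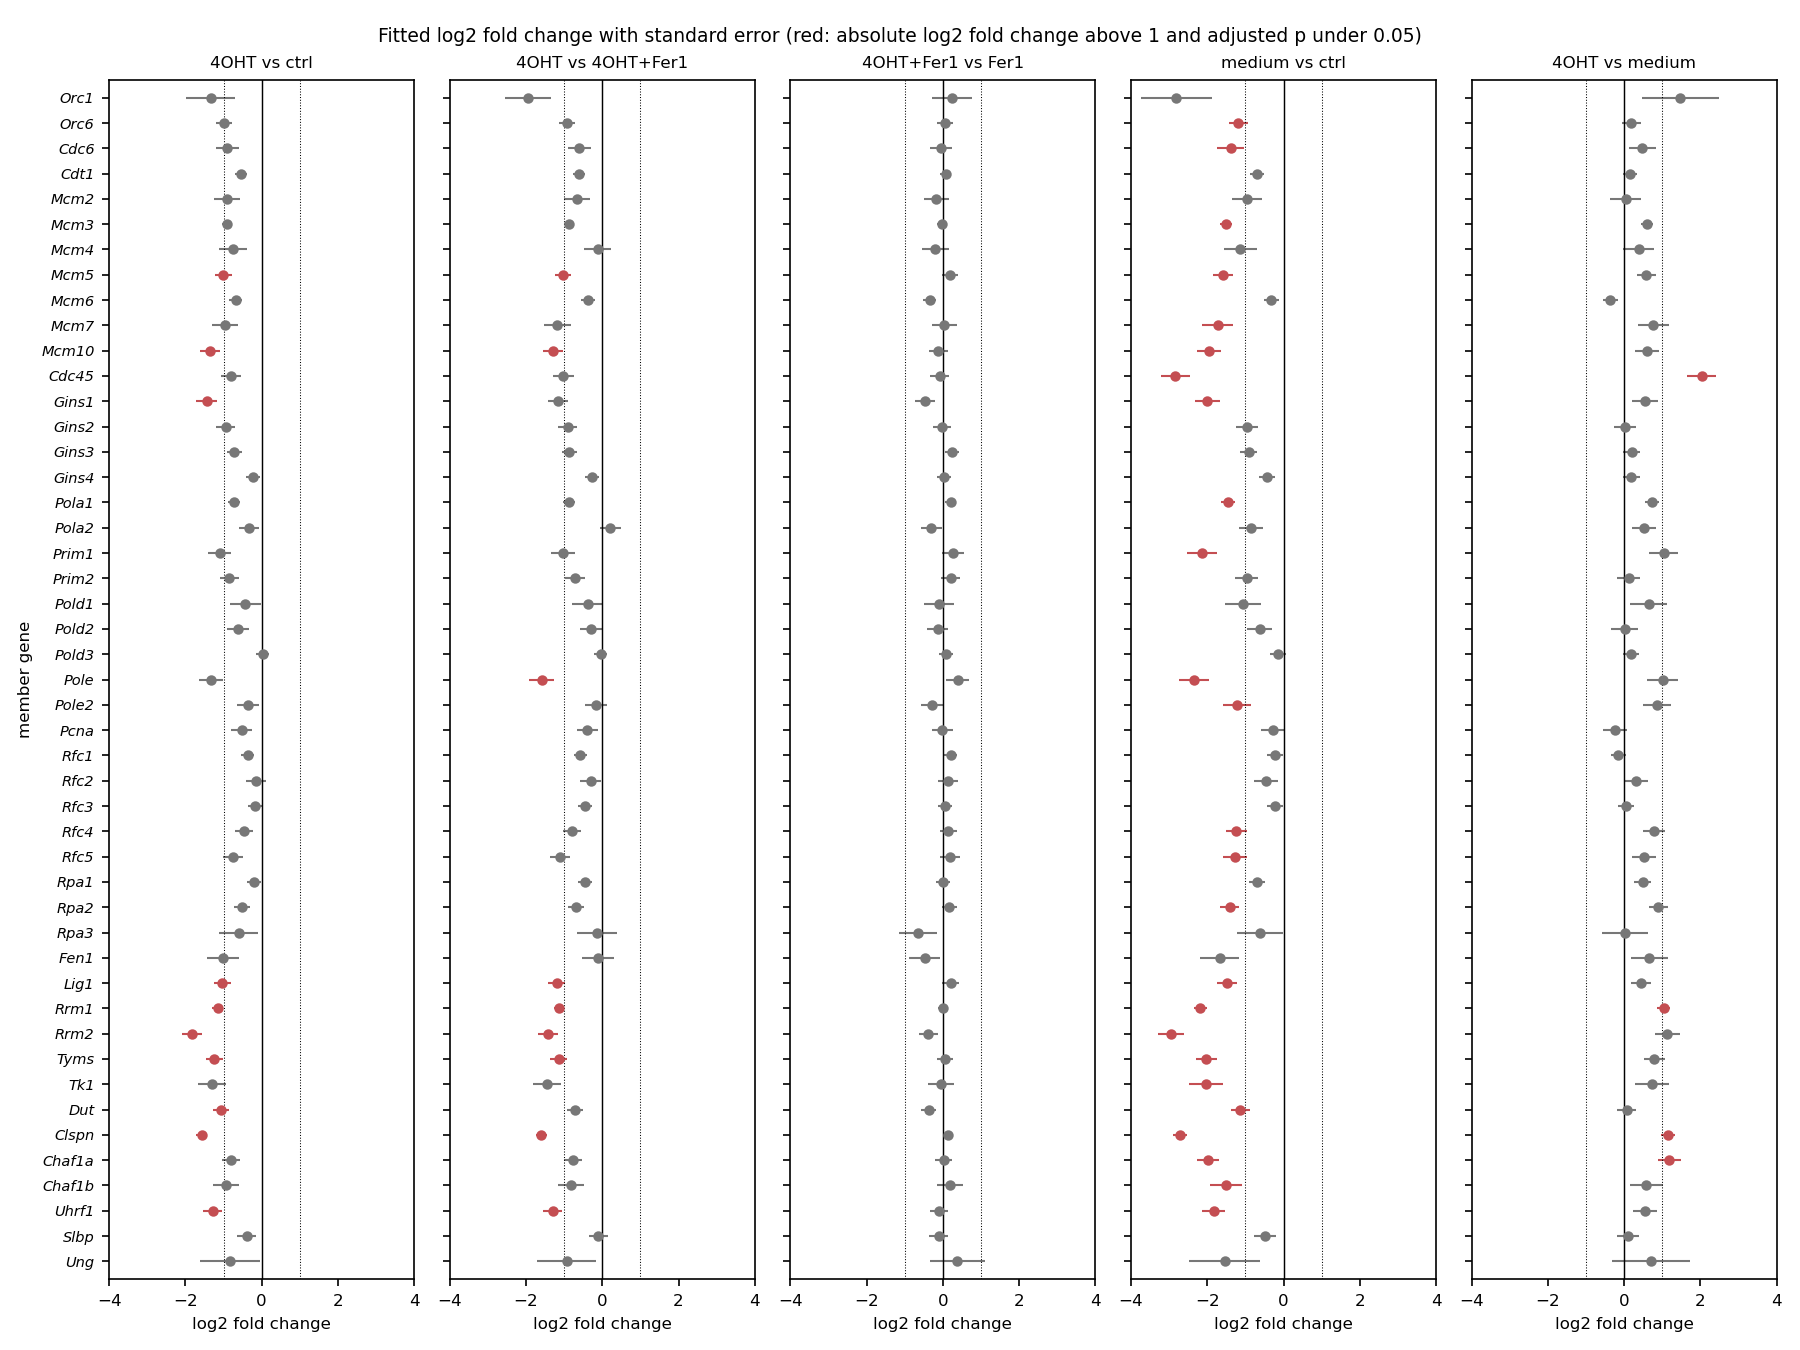
Fitted log2 fold change (horizontal axes) of the 47 replication genes (vertical axis) in 5 comparisons, with bars of 1 standard error, called genes in red and dotted lines at the fold limit of 1. Points lie left of 0 for 46 genes in the 2 comparisons of 4OHT with ctrl and with 4OHT+Fer1, scatter around 0 in 4OHT+Fer1 against Fer1, and lie left of 0 for all 47 in medium against ctrl. Comparisons that share samples are not independent.

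Fresh medium that had never been on fibroblasts served as a further reference. Against ctrl, all 47 replication genes were lower in medium, with a median of -1.26, and 25 were called lower (4.1% of all genes). Rrm2 (-2.96), Cdc45 (-2.84), Clspn (-2.72), Pole (-2.35) and Rrm1 (-2.19) had the largest called decreases, with edgeR adjusted p from 7.69e-06 for Clspn to 0.00260 for Pole. Cdc45 had 0.762 and 0.779 CPM in medium, from 6 and 7 counts, against 4.96, 6.23 and 4.53 CPM in ctrl. Orc1 had 1 and 1 count in the medium samples, at or under the floor. In 30 genes both medium samples lay below all 9 samples of live supernatants (9.25% of all genes). Mcm6, Pold3, Pcna, Rfc1 and Rfc3 were close to ctrl in medium, with log2 fold changes of -0.32, -0.15, -0.27, -0.22 and -0.22 and edgeR adjusted p above 0.3 each. Without the replicate number 18 genes were called, and leaving out replicate number 1 or 2, which leaves a single medium sample, gave 4 and 3.

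The distance of the ferroptotic samples from fresh medium was tested directly. In 4OHT against medium, 44 of the 47 genes were higher, with a median of 0.55, and 4 were called higher (1.42% of all genes): Cdc45 (2.03 ± 0.38, edgeR adjusted p = 0.0113), Chaf1a (1.19 ± 0.29, edgeR adjusted p = 0.0409), Clspn (1.15 ± 0.17, edgeR adjusted p = 0.00409) and Rrm1 (1.03 ± 0.17, edgeR adjusted p = 0.00571). Pola1 passed the adjusted p alone (0.72 ± 0.18, edgeR adjusted p = 0.0472). Dut, Gins2, Mcm2 and Pold2 had differences of 0.07, 0.03, 0.04 and 0.02, with standard errors up to 0.41. Mcm6, Pcna and Rfc1 were the genes lower in 4OHT than in medium, by -0.36, -0.25 and -0.15, none passing the test (edgeR adjusted p = 0.434, 0.822 and 0.832). Without the replicate number 2 genes were called, and without replicate number 1 or 2 none was.

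A further 51 replication genes outside the 47 were read as a second list, which was chosen with earlier results of these data known. It rests on the same samples and is not independent of the first. In 4OHT against ctrl, 9 were called lower and none higher, where 0.763% of all genes were called lower. Of the 51 genes, 47 were negative, and the median was -0.55. The 5 largest were Esco2 (-2.44), which joins sister chromatids by acetylating cohesin, Ticrr (-1.92), which helps to fire origins, the PCNA-binding factor Pclaf (-1.62), the histone chaperone Asf1b (-1.44), and Dtl (-1.13), which marks Cdt1 for destruction. Esco2 had 9.02, 13.6 and 17.4 CPM in ctrl, 7.54, 13.4 and 8.81 CPM in Fer1, 13.5, 11.05 and 9.01 CPM in 4OHT+Fer1, 2.63, 3.35 and 1.39 CPM in 4OHT and 0.381 and 0.779 CPM in medium. Its ferroptotic samples were under all others except fresh medium. Summed over the 51 genes, the values were 2143, 1914 and 1816 CPM in 4OHT and 2433, 2286 and 2316 CPM in ctrl. Live supernatants reached into the 4OHT range, with 1962 CPM in the third Fer1 and 2035 CPM in the third 4OHT+Fer1 sample. Medium had 2663 and 2462 CPM, above all ctrl samples, whereas 45 of the 51 genes had negative log2 fold changes in medium against ctrl. Of the G1/S regulators tested, 1 of 22 was called (Rbl1, -1.001), with a list median of -0.34. Ccne1, the cyclin that triggers S phase, had -1.26 (edgeR adjusted p = 0.163), the transcription factor gene E2f1 -0.24 (edgeR adjusted p = 0.909), and the CDK inhibitor gene Cdkn1a -0.33 (edgeR adjusted p = 0.764).

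A list of mitosis genes, also chosen with earlier results known and measured in the same samples, was read beside the replication genes. All 24 had negative values when 4OHT was compared with ctrl (median -1.14). Of these, 5 were called, where 0.763% of all genes were called lower: Kif11 (-1.71), Cenpe (-1.52), Top2a (-1.50), the proliferation marker Mki67 (-1.46) and Aurka (-1.03). Summed over the list they gave 1143, 1505 and 452 CPM in 4OHT and 2218, 2541 and 2536 CPM in ctrl, so the third ferroptotic sample was the lowest. Summed over the 47 replication genes the values were 956, 991 and 869.8 CPM in 4OHT, 1586, 1784 and 1249.6 CPM in ctrl, 1462, 1788 and 1289 CPM in Fer1, 1618, 1759 and 1336 CPM in 4OHT+Fer1 and 847 and 896 CPM in medium. On this scale the ferroptotic and fresh-medium samples overlapped. Pcna (means of 109 CPM in 4OHT and 149 CPM in medium) and Rfc1 (159 and 195 CPM) had the highest levels in the sum and lay lower in 4OHT than in medium, whereas 44 of the 47 genes had higher fitted values in 4OHT. The mitosis sums did not overlap, with 195 and 266 CPM in medium. In 4OHT against medium, 18 of 24 mitosis genes were called higher (1.42% of all genes), with a median of 2.41.

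**Figure D4:**
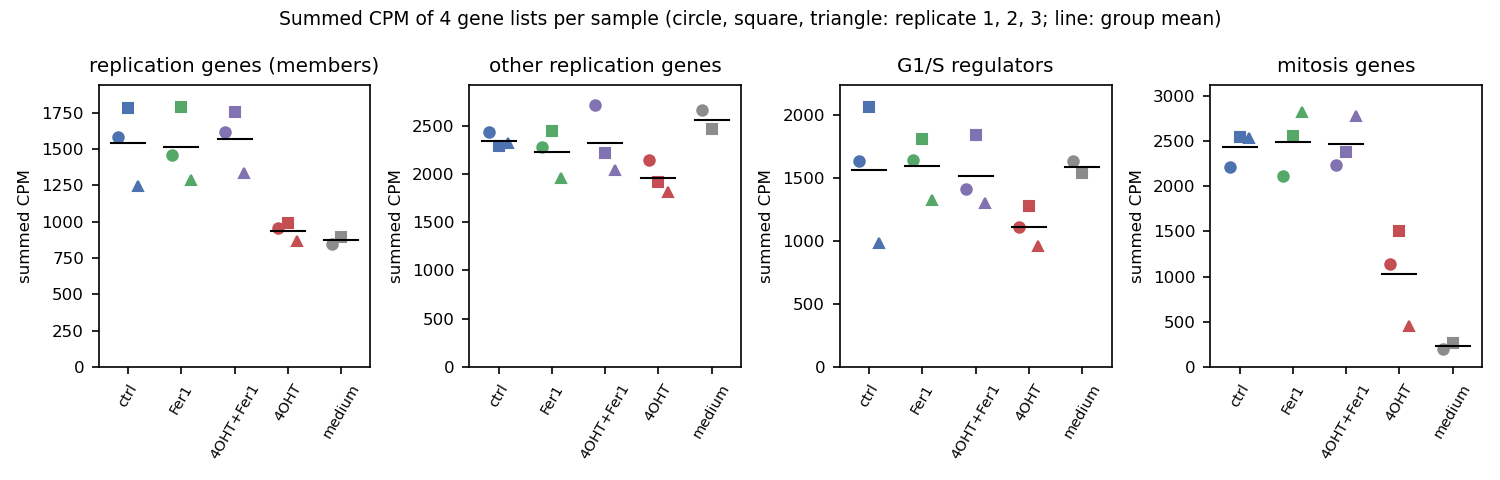
Summed CPM of 4 gene lists in every sample (vertical axes start at 0), with circle, square and triangle for replicate numbers 1, 2 and 3 and a line at the group mean. Replication genes stand between 869.8 and 991 CPM in 4OHT, under all live supernatants. The third 4OHT sample is lowest for mitosis genes at 452 CPM among the supernatant samples, and G1/S regulators overlap. Other replication genes overlap between 4OHT and live supernatants too, and both of their medium samples stand above all ctrl samples.

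Markers of other cell types were read beside these results. The 12 fibroblast markers summed to 54.1, 17.7 and 51.5 CPM in 4OHT, to 53.7, 20.1 and 52.1 CPM in ctrl, to 64.6, 17.5 and 101 CPM in 4OHT+Fer1, to 67.8, 21.3 and 131 CPM in Fer1 and to 112 and 37.5 CPM in medium, with the second replicate lowest in each group. All 6 fibroblast markers tested had negative values in 4OHT against 4OHT+Fer1, with a median log2 fold change of -0.33. Col1a1 was called (-1.14, edgeR adjusted p = 0.0456), where 0.731% of all genes were called lower. The 10 neutrophil markers summed to 78.5, 59.5 and 22.7 CPM in 4OHT, 34.3, 33.8 and 46.3 CPM in ctrl and 107 and 109 CPM in medium, with Ly6g and Elane at 0 in all samples. Csf1r, the receptor for M-CSF, had a log2 fold change of 1.03 in 4OHT against ctrl (edgeR adjusted p = 0.219). In medium against ctrl, 5 of the 6 fibroblast markers tested were higher and 1 was lower, and all 5 neutrophil markers tested were higher. The fibroblast genes Col1a1 (1.17), Col1a2 (1.22) and Tagln (2.67) were called. So were the neutrophil genes S100a8 (1.49) and Ngp (1.88), where 3.69% of all genes were called higher. The replication genes were lower in that comparison, and the part of these markers in the result was not tested.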

How the data were processed

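Expected counts per gene, estimated with Salmon 1.5.2 and STAR 2.7.10a per the labels and deposited without normalization, were the only values used. The submitters' processing notes list GRCh38 and GRCm38, the study's methods name a human genome, and the gene identifiers are those of mouse. A table of the authors' own comparisons (fold changes, p-values and 14 columns of CPM per sample) was not used.

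Counts were rounded (30109 were not whole) and fitted with edgeR 4.0.16 in R 4.3.3: TMM scaling, filterByExpr with a minimum count of 10, and a quasi-likelihood fit of all 14 samples on group and replicate number, with Benjamini-Hochberg adjustment. A standard error is the size of the log2 fold change over the root of its F value. Differences within replicate numbers used log2 CPM with a prior count of 2. The study's methods put mouse ID in the model, and the replicate number was assumed to be the mouse. Deviations from group means correlated with a median of 0.247 over 26 pairs of equal number (21 above 0.1) and -0.139 over 52 other pairs. Deviations cancel out within each group, so the negative value of the other pairs is tied to the positive one and is no separate reference. All 3 pairs were above 0.1 for 4OHT with ctrl and for 4OHT with 4OHT+Fer1. Within groups, samples differed beyond counting noise (chi-square per degree of freedom 10.9 to 79.4).

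The 47 genes and all other lists were chosen with earlier results of these data known. Values in every sample are given for members called in 4OHT against ctrl or 4OHT+Fer1 or in the contrast of both 4OHT effects, and for the member of highest mean CPM in each role. Genes of other lists are named where called, up to 5 per direction and comparison, besides Mki67, Ccne1, E2f1, Cdkn1a and Csf1r. Other genes given with values were chosen after their values were seen. Positions are those of GENCODE M21. The tests were tried on simulated counts that held no replicate effect, so that trial does not bear on calls that depend on the replicate number. The alternatives were DESeq2 1.42.0, no replicate number, RLE size factors, no filter, a minimum count of 30, only the groups compared, no fold limit and each replicate number left out. Count limits cover counting error only.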

Additional observations from a re-analysis of the deposited data

Results flagged for a closer look

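Clspn was the 1 gene of the 47 called by edgeR when the 4OHT effects without and with Ferrostatin-1 were tested against each other, and DESeq2 called 6. The log2 fold change of 4OHT was -1.57 without and 0.13 with Ferrostatin-1, and the difference was -1.70 (standard error 0.19, edgeR quasi-likelihood test with Benjamini-Hochberg adjustment, adjusted p = 0.00939). It had the same sign within each of the 3 replicate numbers (-1.76, -1.59 and -1.72). It was not called without the replicate number in the model or without replicate number 1 or 2, where its values were -1.70, -1.66 and -1.73 (adjusted p = 0.105, 1 and 0.945). It was called by DESeq2, with RLE size factors, under both other filters, in the fit of the groups compared only, without replicate number 3 and without the third 4OHT or ctrl sample, and over all these alternatives its adjusted p ranged from 9.24e-11 to 1.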

How the results depend on the processing

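The 3 samples per group, 2 of medium, limit what could be called, and Orc1, Rpa3 and Ung rest on few counts. No gene called in a comparison reversed its direction under any alternative. Without the replicate block, that is without the pairing by replicate number, 1 replication gene was called in 4OHT against ctrl, 2 were called in 4OHT against 4OHT+Fer1, 2 in 4OHT against medium and 0 in the contrast of both 4OHT effects. The median log2 fold change in 4OHT against medium was then 0.43 in place of 0.55. Fits of only the groups compared called 0 genes in 4OHT against ctrl and 2 in 4OHT against 4OHT+Fer1, with a median of 0.47 in 4OHT against medium. DESeq2 called 6 in the contrast. Shares of all genes called are those of the main fit, so the counts under the alternatives have no such share beside them. Leaving out 1 replicate number at a time gave 0 to 10 calls in 4OHT against ctrl, 0 to 5 calls in 4OHT against 4OHT+Fer1, 0 to 6 in 4OHT against medium, 3 to 25 in medium against ctrl and 0 to 2 in the contrast. Without number 1 or 2, which leaves a single medium sample that is assumed to vary like the other groups, genes were called in medium against ctrl only. The medians then ranged from 0.49 to 0.61 in 4OHT against medium and from -0.077 to 0.038 in 4OHT+Fer1 against ctrl. Of 2 alternatives chosen after seeing the data, omitting the third 4OHT sample gave 11 calls for 4OHT against ctrl, 11 for its comparison with 4OHT+Fer1 and a median of 0.50 in 4OHT against medium, and omitting the third ctrl sample gave 12 calls in 4OHT against ctrl and 2 in the contrast. Fits that leave out samples have fewer residual degrees of freedom, and the cause of the other differences was not tested. In 4OHT against ctrl, 44 to 46 of the genes tested were lower under every alternative. The range was 41 to 46 in 4OHT against 4OHT+Fer1 and 41 to 46 in the contrast. In 4OHT against medium, 37 to 44 were higher, with 37 in the fit without replicate number 1 and 40 without the replicate block.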

Other observations

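Further cell cycle genes were called in fresh medium against ctrl. Of 22 G1/S regulators, 6 were called lower and none higher, where 4.1% of all genes were called lower: Ccna2 (-4.43), the cyclin of S and G2 phase, the repressors E2f7 (-3.54) and E2f8 (-1.71), the cyclins Ccne2 (-2.01) and Ccne1 (-1.60) and the CDK4/6 inhibitor gene Cdkn2c (-2.15), with edgeR adjusted p from 0.000484 to 0.0373. Of 51 other replication genes, 22 were called lower, led by Esco2 (-4.55), Pclaf (-3.66), the origin-firing kinase gene Cdc7 (-3.53), the helicase gene Recql4 (-3.48) and Chtf18 (-2.94), part of an alternative clamp loader. Samhd1, which breaks down deoxynucleotides, was the only one of them called higher (1.40 ± 0.15, edgeR adjusted p = 0.000169).

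In ferroptotic supernatant against fresh medium, Ccna2 (2.98), E2f7 (2.16), Esco2 (2.12), Pclaf (2.05) and Asf1b (1.49) were called higher and Samhd1 lower (-1.03 ± 0.15, edgeR adjusted p = 0.00409). Both comparisons share the 2 medium samples, so their opposite signs are not independent.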
